A study of Mus musculus with 32 samples.

Results

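The genes described here are 10 genes of the integrated stress response: Atf4, Atf3, Ddit3, Trib3, Chac1, Asns, Stc2, Nupr1, Sesn2 and Slc7a5. They were taken by symbol from the 55289 named genes of each of 5 organ tables, and all 10 were listed in every table. The study set Ftsj1_DF mice against wild type (WT) mice, all male, 4 months old and untreated. Brain, heart, kidney and liver came from the same 6 mice, 3 Ftsj1_DF and 3 WT. Spleen came from 8 other mice, 4 Ftsj1_DF and 4 WT, which makes 14 mice and 32 libraries. The mice fall into 5 sets of brothers, per the labels, which do not describe the Ftsj1 allele beyond its name. Whole organs were ground, so each value mixes all cell types of an organ. Ftsj1, an X-linked gene, encodes a methyltransferase that modifies the ribose of tRNA anticodon loops.

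The assay was degradome sequencing. From 5 µg of total RNA per library the poly(A) fraction was taken, an adapter was joined to molecules that had no cap, and a short tag next to the joined end was read. For nuclear genes such tags come from transcripts that were decapped or cut, so a value is an amount of uncapped ends and not of intact mRNA. In whole organs a difference in the number of cells of a type and a difference in RNA per cell cannot be told apart. The authors' deposited tables give, for each gene, a normalized count averaged over the libraries of that organ, a log2 fold change with its standard error (SE), a p and an adjusted p from DESeq2, and they hold no value per library. A gene was counted as risen or fallen when the authors' adjusted p was under 0.05. All changes below are Ftsj1_DF over WT on the log2 scale, ± SE, with 3 libraries of each genotype (4 of each in spleen).

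Direction was read from Ftsj1 itself, whose estimate was negative in all 5 deposited tables. The log2 change was -2.84 ± 0.38 in the table named for brain, -1.72 ± 1.03 in heart, -1.56 ± 0.61 in kidney, -3.38 ± 0.59 in the table named for liver and -3.17 ± 0.77 in spleen. The adjusted p was 1.75e-09, 0.594, 0.202, 1.8e-04 and 0.0261 in the same order. The fall passed in 3 tables and did not pass in heart and kidney. The names of a pair of tables went against their contents. The 8 hepatocyte markers, among them Alb and Apoa1, made up 25.9% of all normalized counts in the brain one and 0.45% in the liver one. Neuronal markers made up 0.285% of the liver one and 0.0022% of the brain one. These tables are called brain-named and liver-named below, and no organ is assigned to them.

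The integrated stress response is a shared answer to amino acid shortage, unfolded protein in the endoplasmic reticulum, haem shortage and double-stranded RNA. Each of these activates a kinase that phosphorylates the translation factor eIF2α, which lowers general protein synthesis while a few mRNAs with upstream reading frames, that of ATF4 foremost, are translated more. ATF4 then switches on genes for amino acid supply, redox balance and, when stress lasts, cell death. It pairs with C/EBP proteins on a composite DNA element with the core TGATGNAA.

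The 250 bases before the annotated gene start were searched for this core on both strands, TGATGNAA or its reverse complement TTNCATCA, because most members are known ATF4 targets. RefSeq promoters on build GRCm38.p6 were found for 9 of the 10 members, all but Slc7a5. The core was present in 4 of these 9, namely Atf3, Chac1, Asns and Nupr1, and in 1134 of all 32851 RefSeq promoters (3.45%). It was not in the window of Atf4, Ddit3, Trib3, Stc2 or Sesn2, and Trib3 had 1 match after its start. A match is a string of letters and not a site shown to be bound. The windows around the 4 matches are shown so that the shared core can be compared, 5′ to 3′ on the strand of the gene, with the match in capitals.

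Atf3: tctcgcacTTGCATCAccaagtcc
Chac1: ccctgccgTTGCATCActcctgcc
Asns: cagccacaTGATGAAActtcccgc
Nupr1: gggccagaTTGCATCAgacagggc

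The Atf3 window lies at chr1:191183428-191183451 on the minus strand, with the match 110 bases before the start. The Chac1 window lies at chr2:119351041-119351064 on the plus strand, with the match 193 bases before the start. The Asns window lies at chr6:7693217-7693240 on the minus strand, with the match 23 bases before the start, and it reads in the other orientation from the remaining 3. The Nupr1 window lies at chr7:126625565-126625588 on the minus strand, again with the match 110 bases before the start.

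Stc2 and Nupr1, the members with the largest changes that passed, are shown with their full upstream stretches. One of the stretches holds the core and the other does not. The Nupr1 stretch is chr7:126625471-126625720 and that of Stc2 is chr11:31370062-31370311, both on the minus strand of GRCm38.p6, 5′ to 3′ toward the start, with the core in capitals where present.

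Nupr1: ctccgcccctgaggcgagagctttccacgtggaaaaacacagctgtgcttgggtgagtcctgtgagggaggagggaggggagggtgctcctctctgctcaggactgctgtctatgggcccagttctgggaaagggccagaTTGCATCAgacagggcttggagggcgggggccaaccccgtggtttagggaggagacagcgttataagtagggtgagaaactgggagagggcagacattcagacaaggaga
Stc2: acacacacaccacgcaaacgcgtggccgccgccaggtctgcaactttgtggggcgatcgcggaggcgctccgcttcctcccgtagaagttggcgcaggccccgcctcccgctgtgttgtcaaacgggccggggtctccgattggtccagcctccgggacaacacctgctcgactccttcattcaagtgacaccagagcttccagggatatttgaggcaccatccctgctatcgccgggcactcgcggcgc

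Most members did not pass the test in any organ. Of 50 member values, 10 genes in 5 tables, 47 had an adjusted p, 3 of these rose and 0 fell. The 3 were Nupr1 in the brain-named table, Slc7a5 in heart and Stc2 in kidney, 1 in each of 3 tables and a different gene each time. In the brain-named table the test was passed by 1 of 10 members, beside 0.414% of all tested genes. In heart 1 of 10 passed, beside 1.19%. In kidney 1 of 8 passed, beside 2.07%. In the liver-named table and in spleen 0 of 10 and 0 of 9 passed, beside 0.203% and 0.217% of all tested genes. Rises alone made up 0.335%, 0.418%, 1.21%, 0.117% and 0.121% of tested genes, listed from the brain-named table through heart, kidney and the liver-named table to spleen. At an unadjusted p under 0.05 there was 1 member in the brain-named table, beside 10.8% of all tested genes, and 3 in heart, beside 10.6%. There were 3 in kidney, beside 11.9%, and 1 each in the liver-named and spleen tables, beside 10.4% and 5.97%. All of these p are from the authors' DESeq2 test.

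The estimates of the members had both signs in every table. Their median change was 0.00 in the brain-named table, 0.15 in heart, 0.14 in kidney, 0.30 in the liver-named table and 0.37 in spleen. Over all tested genes the median lay between -0.05 and 0.04. Members above 0 numbered 5 of 10, 6 of 10, 5 of 8, 7 of 10 and 6 of 9 in the same order. The precision differed much between genes. To pass, a member would have needed a change of between 0.70 (Atf4 in kidney) and 8.25 (Chac1 in spleen).

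**Figure D1:**
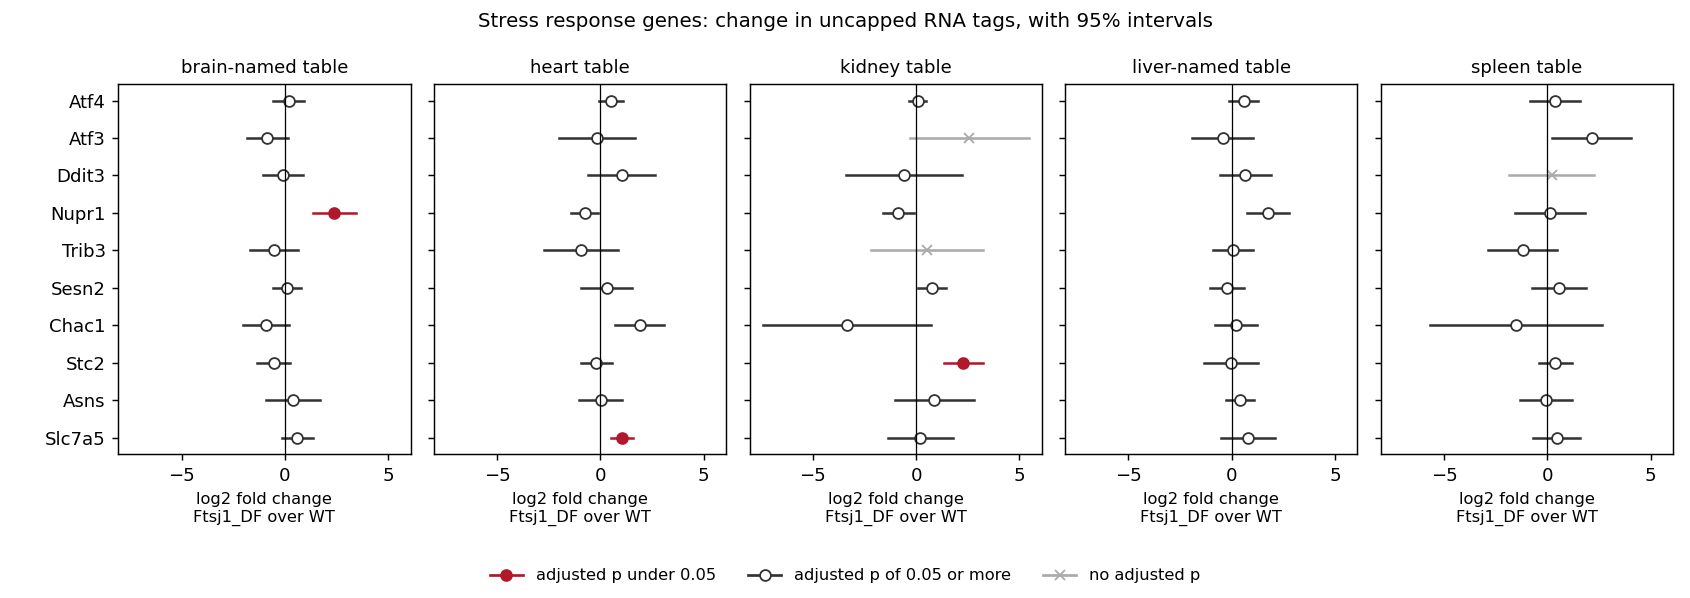
Change of the 10 stress response genes in each of the 5 deposited tables. The horizontal axis is the log2 fold change of Ftsj1_DF over WT, points are the authors' estimates and lines their 95% intervals, red marks an adjusted p under 0.05 and grey crosses mark values with no adjusted p. The 3 red points are Nupr1 in the brain-named table, Stc2 in the kidney table and Slc7a5 in the heart table, and the widest lines belong to Chac1 in the kidney and spleen tables.

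Among the transcription factors, Atf4, the central activator, was tagged deeply and passed in no table. Its change was 0.20 ± 0.38 in the brain-named table, at a mean of 16570.1 normalized counts. It was 0.52 ± 0.30 in heart, 0.08 ± 0.21 in kidney, 0.59 ± 0.36 in the liver-named table and 0.37 ± 0.61 in spleen. All 5 estimates lay above 0 and all 5 of the 95% intervals reached below 0, with adjusted p from 0.561 in heart to 0.9995 in spleen. The kidney interval was the tightest, from -0.34 to 0.50. ATF4 protein is controlled largely at translation, which these tags do not measure.

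Atf3, a stress-induced factor that acts downstream of ATF4, had means between 33.7 and 96.1 normalized counts. Its largest value with a p was 2.15 ± 0.98 in spleen, where the unadjusted p was 0.0289 and the adjusted p 0.716. The kidney estimate of 2.58 ± 1.46 was deposited without a p. In the other tables Atf3 stood at -0.86 ± 0.50 (brain-named), -0.16 ± 0.94 (heart) and -0.44 ± 0.75 (liver-named). None of these passed.

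Ddit3, which encodes CHOP, the factor that links prolonged stress to cell death, had means between 21.3 and 159.9 normalized counts. The estimate was -0.10 ± 0.50 in the brain-named table, 1.03 ± 0.84 in heart, -0.59 ± 1.43 in kidney and 0.66 ± 0.64 in the liver-named table. The spleen value, 0.20 ± 1.05, had no p. None passed, and the smallest adjusted p was 0.753, in heart. The Ddit3 and Mars1 gene models meet at their ends in RefSeq, and how tags there were counted is not given in the sources used here. Mars1, the methionyl-tRNA synthetase, had 1163 to 5263 normalized counts, and its values ranged from -0.31 ± 0.34 in the brain-named table to 0.43 ± 0.33 in kidney, with none past the threshold.

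Nupr1 had the largest change among the members that passed. It encodes a small chromatin-associated stress protein, first known from the inflamed pancreas, that is induced by ATF4. In the authors' deposited brain-named table it rose by 2.40 ± 0.53, a 5.27-fold difference, with a 95% interval of 1.36 to 3.44 and an adjusted p of 0.0081. It ranked 13 of 17619 tested genes by p, at a mean of 580.4 normalized counts. When the test statistic was divided by its spread over all genes, the adjusted p was 0.1. In the liver-named table the value was 1.74 ± 0.52 at a mean of 1454 normalized counts, with an unadjusted p of 7.3e-04 and an adjusted p of 0.11. It was below 0 in heart, at -0.77 ± 0.33 (adjusted p 0.319), and in kidney, at -0.86 ± 0.38 (adjusted p 0.304). Spleen, with the deepest tagging of Nupr1 at a mean of 22003 normalized counts, gave 0.14 ± 0.87.

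Pancreatic acinar genes also lay above 0 in the brain-named table. Of 10 acinar markers, 9 had counts there, Cela2a being listed at 0, and all 9 were above 0 with a median of 4.19. An adjusted p was given for 7 and 2 rose, Amy2a5, a pancreatic amylase, by 2.63 ± 0.69 (adjusted p 0.0425) and the lipase relative Pnliprp1 by 3.11 ± 0.76 (adjusted p 0.0236). The other 5 lay between 3.19 and 4.81 with larger SEs and did not pass. All 7 had an unadjusted p under 0.05, beside 10.8% of all tested genes. The 9 genes summed to 0.22% of that table's normalized counts. Their part in the Nupr1 result was not tested. In the liver-named table, where Nupr1 was also above 0, the acinar median was -0.12 with 1 of 9 above 0. In heart, kidney and spleen the acinar medians were -0.46, -0.13 and -0.64, and in spleen these genes made up 11.3% of all normalized counts. Macrophage markers were above 0 in the brain-named table for 6 of 6 genes, with Marco, a scavenger receptor, up by 2.47 ± 0.66 (adjusted p 0.0489). In the same table hepatocyte acute phase genes were above 0 for 5 of 5, with a median of 0.67 and none past the threshold. The 8 hepatocyte markers had a median of 0.50 there, with 6 of 8 above 0 and none past the threshold. Of 4 tested adipocyte markers 2 lay above 0, with values from -2.18 to 1.54 and a median of -0.50. At an unadjusted p under 0.05 there were 3 of these 4, beside 10.8% of all tested genes, and none passed the threshold. Of the adrenal cortex markers, 3 were tested and all 3 lay below 0, and Cyp21a1, a steroid hydroxylase gene, fell by 2.37 ± 0.48 (adjusted p 0.0022). Their part in the Nupr1 result was not tested either.

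**Figure D2:**
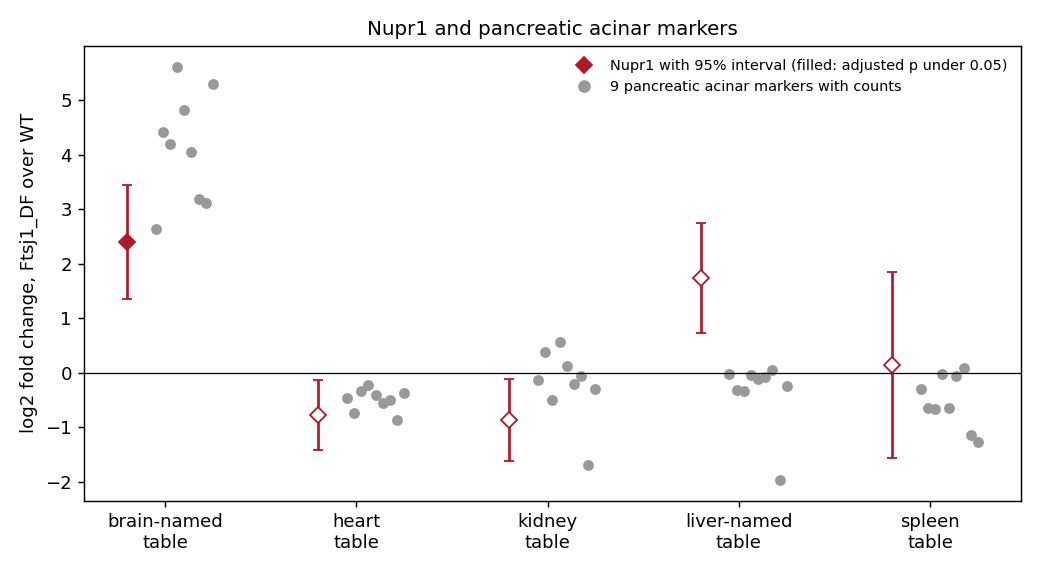
Nupr1 beside 9 pancreatic acinar markers in the 5 deposited tables. The vertical axis is the log2 fold change of Ftsj1_DF over WT, red diamonds are Nupr1 with the 95% interval (filled where the adjusted p was under 0.05) and grey points are single acinar genes. In the brain-named table all 9 acinar genes lie above 2.6, while in the liver-named table Nupr1 lies at 1.74 and 8 of the 9 acinar genes below 0.

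Nupr2, the paralogue of Nupr1 (under its older symbol in the tables), was thinly tagged. Its values were -1.66 ± 1.02 (brain-named) and -2.10 ± 0.97 (liver-named), with adjusted p of 0.599 and 0.414. Neither passed, and both had the opposite sign to Nupr1.

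The next group dampens the response or carries it outward. Trib3, a pseudokinase that binds ATF4 and CHOP and restrains them, passed in no table. Its brain-named value was -0.52 ± 0.59, at a mean of 1018.7 normalized counts, and its liver-named value 0.05 ± 0.50. In heart and spleen, with means of 33.3 and 14.8 normalized counts, it stood at -0.95 ± 0.91 and -1.20 ± 0.86. The kidney mean was 4.92 and its value of 0.55 ± 1.39 had no adjusted p.

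Sesn2, a leucine sensor that holds back the growth kinase mTORC1, was nearest to the threshold in kidney. There it stood at 0.78 ± 0.35, a 1.71-fold difference, with an unadjusted p of 0.0272 and an adjusted p of 0.319. The other values were 0.10 ± 0.35 (brain-named), 0.30 ± 0.62 (heart), -0.22 ± 0.41 (liver-named) and 0.58 ± 0.67 (spleen), none past the threshold. Its paralogue Sesn1 ranged from -0.10 ± 0.25 in heart to 0.45 ± 0.36 in the liver-named table and also passed in none.

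Chac1 encodes an enzyme that breaks down glutathione and is among the most stress-inducible ATF4 targets. Its heart value of 1.90 ± 0.61, a 3.73-fold difference at a mean of 136.1 normalized counts, had an unadjusted p of 0.00196 and an adjusted p of 0.102, so it missed the threshold. Brain-named and liver-named values were -0.93 ± 0.57 and 0.21 ± 0.51. Those of kidney and spleen, -3.34 ± 2.08 and -1.51 ± 2.12, had SEs above 2 and carry little information on direction.

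Stc2 rose in kidney. It encodes stanniocalcin-2, a secreted glycoprotein induced by ATF4 under endoplasmic reticulum stress, which inhibits the protease PAPP-A. The kidney change was 2.28 ± 0.48, a 4.86-fold difference, with a 95% interval of 1.34 to 3.23 and an adjusted p of 5.8e-04. It ranked 76 of 19630 tested genes at a mean of 654.1 normalized counts. The remaining tables gave -0.54 ± 0.40 (brain-named), -0.20 ± 0.38 (heart), -0.03 ± 0.67 (liver-named) and 0.38 ± 0.41 (spleen), with none past the threshold. The paralogue Stc1 was at 0.51 ± 1.47 in kidney (adjusted p 0.964). Markers of the adrenal cortex were below 0 in the kidney table, all 5 of 5 with counts. Star, which carries cholesterol into mitochondria, fell by 4.65 ± 1.03 (adjusted p 0.0013), and the list summed to 0.0058% of the table. Proximal tubule markers had a median of 0.19 with 4 of 6 above 0 and none past the threshold. The part of these cells in the Stc2 result was not tested.

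The last group feeds amino acids to the cell. Asns, asparagine synthetase, is a classical ATF4 target. It stood at 0.40 ± 0.67 (brain-named), 0.00 ± 0.52 (heart), 0.88 ± 0.97 (kidney), 0.39 ± 0.35 (liver-named), with spleen at -0.07 ± 0.65, none past the threshold. The liver-named value was the most precise, at a mean of 10895 normalized counts and a 95% interval of -0.29 to 1.07. The heart value became -0.056 after centring on the median gene, so its sign is not settled.

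Slc7a5, the light chain of the leucine transporter LAT1, rose in heart. The change was 1.05 ± 0.28, a 2.06-fold difference, with a 95% interval of 0.50 to 1.59 and an adjusted p of 0.0215. It ranked 139 of 19847 tested genes at a mean of 1239 normalized counts. With the test statistic rescaled as for Nupr1 the adjusted p was 0.154. The other estimates were also above 0, at 0.61 ± 0.38 (brain-named), 0.19 ± 0.80 (kidney), 0.80 ± 0.67 (liver-named) and 0.46 ± 0.58 (spleen), but none passed. Slc3a2, the heavy chain that pairs with Slc7a5, was at -0.10 ± 0.32 in heart (adjusted p 0.957). In the same heart table adipocyte markers had a median of -2.09, with 1 of 5 above 0. At an unadjusted p under 0.05 there were 4 of 5, beside 10.6% of all tested genes, and 0 passed the threshold. The T cell marker Cd5 fell by 4.53 ± 0.89 (adjusted p 5.0e-04). Cardiomyocyte markers had a median of 0.00 with none past the threshold. Macrophage markers had a median of 0.63, with 4 of 6 above 0 and values from -1.80 to 1.54. Of these 6, 3 had an unadjusted p under 0.05, beside 10.6% of all tested genes, and none passed the threshold. The part of these cells in the Slc7a5 result was not tested.

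Whether a change differed between organs was tested for each gene by a z from both SEs, 2-sided, adjusted by Benjamini and Hochberg over 179711 differences, all genes in all 10 pairs of tables. Brain, heart, kidney and liver tables share their mice, whereas the z treats tables as independent. Of 88 member differences 6 passed, beside 0.324% of all differences, and 14 had an unadjusted p under 0.05, beside 7.87%. The 6 concerned Nupr1 and Stc2, which were also the members with the largest passing changes, so the differences partly restate those changes. With the z rescaled by its spread over genes, 2 of the 6 passed, Nupr1 in the brain-named table against heart and against kidney.

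The Nupr1 change in the brain-named table exceeded that in heart by 3.17 ± 0.62 (adjusted p 0.0012) and that in kidney by 3.26 ± 0.65 (adjusted p 0.0016). The heart change minus the liver-named one was -2.51 ± 0.61 (adjusted p 0.023, rescaled 0.0648), and the kidney change minus the liver-named one was -2.60 ± 0.64 (adjusted p 0.0253, rescaled 0.154). The Nupr1 estimates were therefore above 0 in the brain-named and liver-named tables and below 0 in heart and kidney, although the same mice gave all 4. The Stc2 change in the brain-named table minus that in kidney was -2.82 ± 0.63 (adjusted p 0.0084, rescaled 0.0882), and that in heart minus kidney was -2.48 ± 0.61 (adjusted p 0.0253, rescaled 0.0928). The Stc2 kidney change was not shown to differ from spleen, at 1.90 ± 0.63 (adjusted p 0.219), or from the liver-named table, at 2.31 ± 0.82 (adjusted p 0.282). For Slc7a5 no pair of tables differed, the smallest adjusted p being 0.921, so its rise was not shown to be particular to heart. For Chac1 the closest was brain-named minus heart, at -2.83 ± 0.84 (adjusted p 0.114).

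The wider pathway was described with 95 further genes in 9 lists. Between 88 and 90 had an adjusted p in each table. Of these, 1 rose in the brain-named table (1.14%, beside 0.414% of all tested genes), 1 rose in kidney (1.14%, beside 2.07%) and 1 fell in spleen (1.11%, beside 0.217%), while 0 passed in heart or in the liver-named table. Each share is 1 gene. At an unadjusted p under 0.05 there were 8 genes in the brain-named table (9.09%), 5 in heart (5.68%), 7 in kidney (7.95%), 6 in the liver-named table (6.67%) and 3 in spleen (3.33%). These unadjusted shares lie below those of all tested genes given above.

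The genes that passed were downstream targets. Fgf21, a hormone that liver secretes under ATF4 control, rose by 2.26 ± 0.38 in the brain-named table (mean 470.8 normalized counts, adjusted p 3.3e-05). It fell by 4.05 ± 1.01 in spleen (mean 145.1, adjusted p 0.035). Its means in heart, kidney and the liver-named table were 3.47, 2.91 and 40.8, without an adjusted p. Pancreatic acinar markers had a median of 4.19 in the brain-named table, with 9 of 9 above 0. In spleen their median was -0.64, with 1 of 9 above 0 and none past the threshold. The part of acinar cells in the Fgf21 changes was not tested. Tnfrsf10b, a death receptor gene induced through CHOP, rose by 4.07 ± 1.24 in kidney, at a mean of 40.6 normalized counts and an adjusted p of 0.0495. The Tnfrsf10b call was lost under 4 of 6 alternatives and that of Fgf21 in spleen under 2 of 6. Of 10 to 12 tested targets in this list, the medians ran from -0.26 in spleen to 0.25 in kidney.

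**Figure D3:**
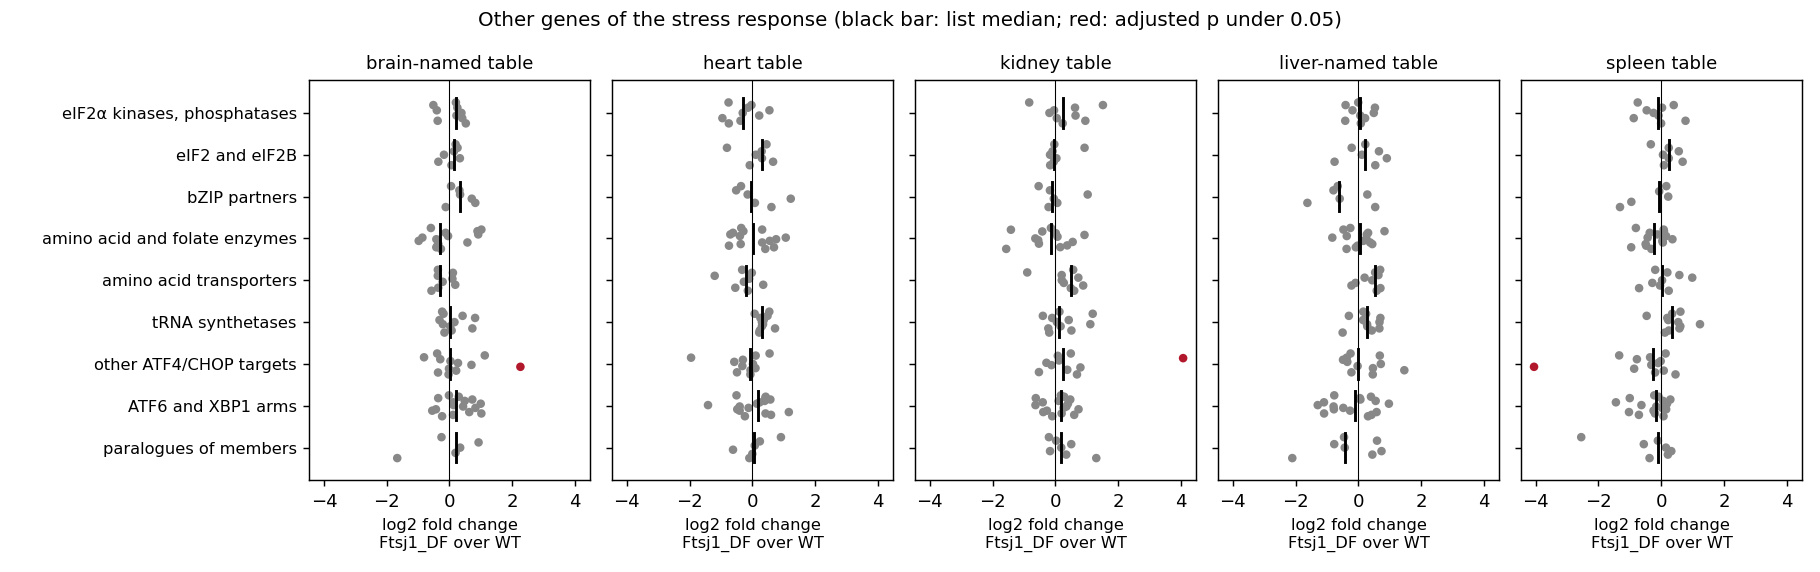
Log2 fold change of Ftsj1_DF over WT for single genes of the 9 further lists in the 5 deposited tables. Each point is a tested gene, black bars are list medians and red points have an adjusted p under 0.05. The 3 red points are Fgf21 in the brain-named and spleen tables and Tnfrsf10b in the kidney table, and all list medians lie within 0.7 of 0.

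Upstream of ATF4, the 9 kinases, phosphatase subunits and regulators of eIF2α included no gene past the threshold in any table. Their medians ran from -0.31 in heart to 0.23 in kidney. Ppp1r15a, the stress-induced subunit that directs dephosphorylation of eIF2α, was at 1.52 ± 0.66 in kidney (adjusted p 0.282). Among eIF2 and eIF2B subunits 0 passed, with Eif2b3, part of the exchange factor, at 0.91 ± 0.32 in the liver-named table (adjusted p 0.211). Among partner factors of ATF4 none passed, and Atf5, a relative of Atf4, was at -1.31 ± 0.58 in spleen (adjusted p 0.697).

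Among metabolic targets none passed either. Of 13 or 14 tested amino acid and folate enzymes none passed in any table. The nearest were Gpt2, an alanine transaminase, at -0.98 ± 0.36 in the brain-named table (adjusted p 0.206), and Phgdh, the first enzyme of serine synthesis, at 0.93 ± 0.36 in kidney (adjusted p 0.181). Of 8 or 9 tested amino acid transporters none passed. Their median was 0.49 in kidney, with 8 of 9 above 0, and -0.21 in heart, with 1 of 8 above 0. It was -0.28 in the brain-named table (3 of 8), 0.54 in the liver-named table (7 of 9) and 0.03 in spleen (5 of 9). The cytosolic tRNA synthetases had 11 of 11 above 0 in heart, with a median of 0.31 and 0 past the threshold. Eprs1, the glutamyl-prolyl-tRNA synthetase, was the nearest, at 0.72 ± 0.25 in heart (adjusted p 0.138). In spleen 10 of 11 synthetases were above 0 with a median of 0.35, again none past the threshold. The brain-named, kidney and liver-named tables had 6, 7 and 9 of 11 above 0. Of all tested genes, 51.1% lay above 0 in heart and 49.5% in spleen. The shares were 53.3% (brain-named), 49.1% (kidney) and 47.1% (liver-named). The neighbouring ATF6 and XBP1 arms, which raise chaperones of the endoplasmic reticulum, had 16 tested genes and none past the threshold, with medians from -0.18 in spleen to 0.22 in the brain-named table. Manf, a secreted factor of these arms, was at 1.00 ± 0.37 in the brain-named table (adjusted p 0.222).

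Levels of uncapped tags were described across tables as the deposited mean count in parts per 1000000 of the table's sum (ppm), both genotypes together. The tables were normalized separately, so this scale is a description with no test. The SE of a log2 level was taken as the SE of the change divided by 2, here called the level SE. Of 40 steps between neighbours in the order of levels, 16 lay beyond the 95% interval given by the combined level SEs, called apart below, and 24 did not. The highest level was in the liver-named table for 4 members, in spleen for 3, in kidney for 2 and in the brain-named table for 1. Pancreatic acinar genes made up 11.3% of all normalized counts in spleen and 0.22% or less elsewhere. Their part in the spleen levels was not tested. Scaling by the median ratio of shared genes kept the highest table for 5 of 10 members, turned 12 of the 40 steps and left 11 of the 16 apart. Sums without the 10 highest genes turned 5 steps and left 14 of the 16 apart. Under each of these scalings 19 of the 40 steps lay apart in the same direction, so some steps became apart. The order of levels therefore depends on the scaling, and the values below are on the ppm scale unless said otherwise.

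Nupr1 had all 4 steps apart on the ppm scale. It stood at 451 ppm in spleen, 87.4 in kidney, 40.7 in heart, 21.3 (liver-named) and 7.91 (brain-named). With median-ratio scaling, kidney over heart was 0.25 ± 0.25 and liver-named over brain-named 0.15 ± 0.37 on the log2 scale, both no longer apart. Its change between genotypes passed in the table with the lowest level. Trib3 stood at 13.9 ppm in the brain-named table and at 1.30, 0.66, 0.303 and 0.101 in the liver-named, heart, spleen and kidney tables. The step below the brain-named table was 3.42 ± 0.39 on the log2 scale and the lower 4 did not separate from their neighbours. With median-ratio scaling and with sums without the 10 highest genes, spleen over kidney became apart, at 2.15 ± 0.82 and 1.98 ± 0.82.

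Both amino acid supply genes were high in the liver-named table. Asns stood there at 160 ppm, against 19.1 in spleen, 6.09 in the brain-named table, 3.85 in kidney and 3.08 in heart. The step from liver-named to spleen was 3.07 ± 0.37 on the log2 scale, and the lower 3 tables did not separate. Brain-named over kidney became apart with median-ratio scaling (1.87 ± 0.59) and with sums without the 10 highest genes (1.24 ± 0.59). Slc7a5 stood at 344 ppm in the liver-named table and 245 in spleen, which did not separate, and at 24.6 in heart, 14.6 in kidney and 8.85 in the brain-named table. The step from spleen to heart was 3.32 ± 0.32.

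Stc2 stood at 22.7 ppm in spleen, 20.4 in heart and 13.5 in kidney, which did not separate from step to step, then at 4.45 in the liver-named and 1.36 in the brain-named table, both apart from the one above. With median-ratio scaling the last of these steps did not separate. Heart over kidney became apart with that scaling (1.45 ± 0.31) and with sums without the 10 highest genes (0.85 ± 0.31). Sesn2 was highest in kidney at 48.2 ppm, 1.17 ± 0.27 on the log2 scale above the liver-named table, where it stood at 21.4. Spleen followed at 18.4 and, apart from it, the brain-named table at 7.04 and heart at 5.55. Chac1 ran from 8.36 ppm in the liver-named table through 2.78 in spleen, 2.70 in heart and 1.32 in the brain-named table to 0.218 in kidney, with the last 2 steps apart. The heart to brain-named step did not separate under either other scaling.

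Of the 3 remaining stress factors, Atf4 stood at 630 ppm in the liver-named table, 489 in spleen, 419 in kidney, 276 in heart and 226 in the brain-named table, and the kidney to heart step alone separated. With median-ratio scaling that step turned to -0.25 and did not separate, while spleen over kidney, at 0.79 ± 0.32, became apart. Ddit3 stood at 3.29 ppm in kidney, 2.58 in spleen, 2.17 in the liver-named and 1.48 in the brain-named table, with heart apart at 0.422. Atf3 lay between 0.695 in kidney and 1.97 in spleen, with no step apart on the ppm scale. Its brain-named over liver-named step became apart under both other scalings. It was 1.94 ± 0.45 with median-ratio scaling and 1.25 ± 0.45 with sums without the 10 highest genes.

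**Figure D4:**
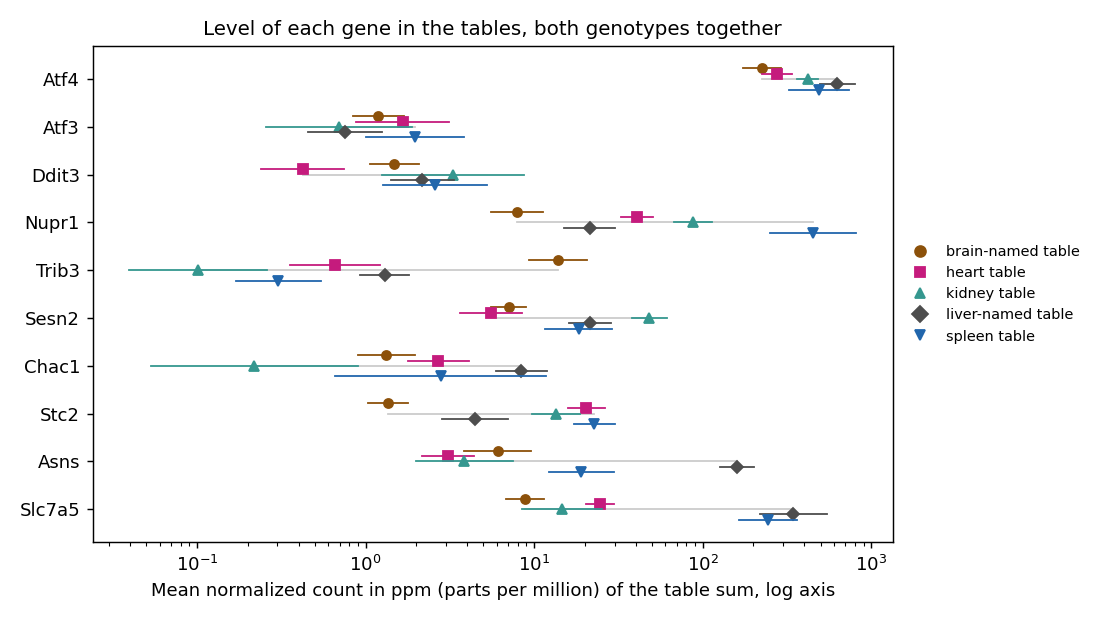
Level of each member in the 5 deposited tables, both genotypes together. The horizontal axis, logarithmic, is the mean normalized count in ppm of the table sum, symbols are tables and lines are 95% intervals from the level SEs. Nupr1 spreads from 7.91 to 451 ppm and Asns from 3.08 to 160, while Atf4 stays between 226 and 630.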

How the data were processed

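Degradome tags from 32 libraries of 14 mice were grouped by organ and genotype, as the sample titles give them. Per the submitters' processing notes, reads were handled on build GRCm39 with featureCounts and Subread 2.0.3, and DESeq2 made the comparison; its version and model are not given in the sources used here. The authors' deposited mean per gene is a signal, the normalized count averaged over all libraries of an organ. The deposited fold change and SE are on the log2 scale. The deposited Wald statistic is a score, fold change over SE. Both the raw and the adjusted p-value were deposited by the authors and used unaltered. Each table had 1 row without a gene name, which held under 0.0001% of the counts and was left out. Depth per library is not in these tables, so precision rests on the deposited SEs.

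No gene test was run anew. Differences between tables used a z from the deposited SEs. The calling step was tested on simulated data. The noise there was drawn from the deposited SEs, so that test does not cover the authors' DESeq2 fit. Alternatives were adjustment over all genes that have a p, thresholds of 1% and 10%, a minimum mean of 20, a Wald statistic rescaled by its spread over genes, and fold changes centred on genes with a mean of at least 100; for levels, median-ratio scaling and sums without the 10 highest genes. Nothing in the labels says how libraries were batched beyond 1 batch label. Brothers are not independent, and whether the authors' model took account of the sets of brothers is not given. The p-values therefore cover only these mice and may be too small or too large. Of the list genes, all but 1 matched a row, 10 tRNA synthetases by an older symbol, and the Nupr1 paralogue likewise. Named were all members, Ftsj1, list genes past the threshold and some of the list genes with the largest Wald statistic where none passed, and the 2 genes nearest to each member that passed, of which 1 is not reported here. Slc3a2, Mars1, Stc1, Sesn1 and Alb were named as partners, neighbours, paralogues or markers, after their values were seen. Members and lists were chosen with earlier results of these data known. The software was scipy 1.17.1, pandas 2.3.3, numpy 2.4.6 and matplotlib 3.10.9 under Python 3.11.15.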

Additional observations from a re-analysis of the deposited data

Results flagged for a closer look

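For 2 members the change between Ftsj1_DF and WT differed between organ tables by the test of the difference, over 88 differences examined. Nupr1 in the brain-named table exceeded heart by 3.17 ± 0.62 and kidney by 3.26 ± 0.65 on the log2 scale. Nupr1 in heart stood at -2.51 ± 0.61 against the liver-named table, and in kidney at -2.60 ± 0.64 against the liver-named table. Stc2 in the brain-named table stood at -2.82 ± 0.63 against kidney, and in heart at -2.48 ± 0.61 against kidney. Adjusted p ran from 0.0012 to 0.0253. With the z rescaled by its spread over genes, the Nupr1 differences of the brain-named table from heart and kidney passed and the other 4 did not.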

How the results depend on the processing

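The Stc2 rise in kidney passed under all 6 alternatives. With the statistic rescaled by its spread over genes, 0 members passed in the brain-named table (1 as deposited) and 0 in heart (1 as deposited), and 0 passed in heart at a threshold of 1%. Over all genes the rescaled count was 9 against 73 (brain-named), 48 against 236 (heart), 169 against 407 (kidney), 2 against 45 (liver-named) and 79 against 50 (spleen). Of the further genes, 0 passed in kidney at 1%, with every gene that has a p, rescaled or centred, and 0 in spleen at 1% or with every gene that has a p (1 each as deposited). Of the 6 differences between tables, 2 passed after rescaling, with adjusted p of 0.0882 and 0.0928 for Stc2 and 0.0648 and 0.154 for Nupr1 against the liver-named table. The cause was not tested. Asns in heart turned to -0.056 when centred. For levels, median-ratio scaling kept the highest table for 5 of 10 members, left 11 of the 16 separated steps apart and turned 12 of 40 steps, of which only Atf4 kidney over heart had separated before (to -0.25). The others were Atf4 liver-named over spleen (-0.28) and heart over brain-named (-0.070), Atf3 spleen over heart (-0.034), Ddit3 kidney over spleen (-0.22) and liver-named over brain-named (-0.73), Chac1 spleen over heart (-0.24), Asns kidney over heart (-0.53), Stc2 spleen over heart (-0.13), Sesn2 liver-named over spleen (-0.42), and Slc7a5 liver-named over spleen (-0.15) and kidney over brain-named (-0.49). Sums without the 10 highest genes left 14 of the 16 apart and turned 5 steps, Atf4 liver-named over spleen (-0.049) and heart over brain-named (-0.031), Ddit3 kidney over spleen (-0.049) and liver-named over brain-named (-0.043), and Sesn2 liver-named over spleen (-0.19). Under each of these scalings 19 of 40 steps were apart in the same direction. Newly apart under both were Atf3 brain-named over liver-named, Trib3 spleen over kidney and Asns brain-named over kidney. So was heart over kidney for Stc2 and Slc7a5. With median-ratio scaling alone, Atf4 spleen over kidney, Trib3 heart over spleen and Sesn2 brain-named over heart also became apart. No paired analysis was possible because the tables hold no values per library, and leaving out single libraries was not run for the same reason. How many libraries share a direction, or whether 1 library decides a value, was not analysed here.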

Other observations

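The genes whose 5 changes lay nearest to each member that passed were found by Euclidean distance over the log2 fold changes, among 14188 genes that reach a mean of 20 and have an adjusted p in all 5 tables. This is a description with no test. Nearest to Nupr1 were the gene model Gm6520, at a distance of 0.85, and mt-Co2, a mitochondrially encoded subunit of cytochrome oxidase whose transcript is made without a cap, at 0.95. The mt-Co2 values were 1.65 in the brain-named table, -0.46 in heart, -0.86 in kidney, 1.33 in the liver-named table and -0.12 in spleen. Among those close to Stc2 was Dexi at 0.38, with 2.32 in kidney. Nearest to Slc7a5 were Rbmx, an RNA-binding protein gene, at 0.36, with 0.88 in heart, and Cd83, a surface marker of mature dendritic cells, at 0.42, with 1.20 in heart.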
